A study of Mus musculus with 6 samples.

Results

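The globin genes and the red cell enzyme gene Alas2 were examined in bulk RNA of the mouse subventricular zone (SVZ), a thin layer beside the lateral ventricles where neural stem cells reside. The 5 genes were Hba-a1 and Hba-a2, which encode the adult alpha chain of hemoglobin, Hbb-bs and Hbb-bt, which encode the adult beta chain, and Alas2. They were picked by name as markers of blood in the tissue, by a rule that does not use their levels. Earlier results of these data were known at that point. All 5 were among the 18614 genes of the table and the 15126 genes tested. There were 3 wild-type libraries (WT 1 to WT 3) and 3 libraries whose titles name a ZHX2 KO (KO 1 to KO 3). KO stands for a knockout, here of Zhx2, a zinc finger and homeobox gene. The labels used here give no age, sex or strain. Groups follow the titles, because the genotype tag is ZHX3 KO for KO 2 and ZHX4 KO for KO 3. The labels do not say whether libraries came from separate mice, so the p-values reflect variation among the libraries alone, some of which may be technical.

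Hemoglobin carries oxygen in red blood cells and is built from equal numbers of alpha and beta chains, each holding a heme group. ALAS2, the red cell form of aminolevulinate synthase, makes the first committed step of heme synthesis in developing red cells, while ALAS1 serves other tissues. Mature mouse red cells have no nucleus, but young ones (reticulocytes) still hold globin RNA, so tissue taken with blood in its vessels yields globin reads. Low globin expression in neurons and glia has also been described. In bulk tissue, fewer cells of a type and less RNA per cell cannot be told apart.

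The library totals were close, between 17037152 and 17685906 estimated counts. The targeted gene went against its label: Zhx2 stood at 39.8, 40.5 and 38.2 CPM (counts scaled to library size) in WT 1 to WT 3 and at 67.1, 57.8 and 56.3 CPM in KO 1 to KO 3, so the second group is called KO-labelled throughout (edgeR adjusted p = 0.163, DESeq2 adjusted p = 0.00142). Which part of the gene was changed in the knockout is not given in the sources used here. The makeup of the dissected tissue also differed between libraries. The summed level of 15 choroid plexus genes, led by the thyroid hormone carrier Ttr, was between 5409 and 23115 CPM in the WT libraries and between 329 and 530 CPM in the KO-labelled ones. The summed level of 10 genes of striatal projection neurons was 560 CPM in WT 1 and 8433 CPM in WT 2, the lowest and the highest of the 6 libraries. KO 2 stood apart in a few single genes, with 3197 counts of Ltf (lactoferrin, a secreted and neutrophil granule protein) against at most 2 elsewhere. The part of these differences in the globin levels was not tested; values without WT 2 and without KO 2 are given with the results.

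How far the paired genes can be told apart by short reads sets what their separate values mean, so the stretch around the only coding difference of each pair is shown first, from the GENCODE M21 transcripts on GRCm38. The coding sequences of Hba-a1 (chr11:32283672-32284486, plus strand) and Hba-a2 (chr11:32296492-32297310, plus strand) are 429 bases long and differ at 1 base, C381T in exon 3 from Hba-a1 to Hba-a2, counted from the first base of the start codon. Those of Hbb-bs (chr7:103826523-103827928, minus strand) and Hbb-bt (chr7:103812524-103813923, minus strand) are 444 bases long and differ by C417T in exon 3 from Hbb-bs to Hbb-bt. Neither change alters the protein, 142 residues for alpha and 147 for beta. The differing base is in capitals.
Hba-a1, coding bases 356 to 406: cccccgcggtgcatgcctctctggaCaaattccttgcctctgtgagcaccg
Hba-a2, coding bases 356 to 406: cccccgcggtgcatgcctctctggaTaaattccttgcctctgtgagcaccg
Hbb-bs, coding bases 392 to 442: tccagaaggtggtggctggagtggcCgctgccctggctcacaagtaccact
Hbb-bt, coding bases 392 to 442: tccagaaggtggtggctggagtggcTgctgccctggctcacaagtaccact
Of the windows of 50 bases, the length of 1 read, 87.1% of those in the coding sequence were shared within the alpha pair and 92.9% within the beta pair. Over whole transcripts, 67.5% of the windows of Hba-a1, 86.9% of Hba-a2, 65.8% of Hbb-bs and 58.3% of Hbb-bt occurred in the partner too. Most reads of a pair could thus fit either gene unless the other end of the fragment settled it, and the split within a pair is an estimate by the authors' quantification. Values of single globin genes are uncertain for that reason, and sums over each pair are given beside them.

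The 250 bases before the start of each gene are shown because the members were compared as a group that may vary together. They come from RefSeq on GRCm38.p6, with 5 of 5 members matched. Capitals mark 4 short motifs known from globin promoters: GATAA, a core of GATA factor sites, CACCC, a core of KLF sites, the CCAAT box and ATATAA, a form of the TATA box. Each was searched on both strands, matches did not overlap, and ATATAA was added once the sequences had been seen.
Hba-a1, chr11:32283422-32283671, plus strand: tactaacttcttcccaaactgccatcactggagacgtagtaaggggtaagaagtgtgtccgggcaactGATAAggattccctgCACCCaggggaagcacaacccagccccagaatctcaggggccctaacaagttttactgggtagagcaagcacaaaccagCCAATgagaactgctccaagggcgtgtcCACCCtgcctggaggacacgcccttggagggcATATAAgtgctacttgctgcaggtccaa
Hbb-bs, chr7:103827929-103828178, minus strand: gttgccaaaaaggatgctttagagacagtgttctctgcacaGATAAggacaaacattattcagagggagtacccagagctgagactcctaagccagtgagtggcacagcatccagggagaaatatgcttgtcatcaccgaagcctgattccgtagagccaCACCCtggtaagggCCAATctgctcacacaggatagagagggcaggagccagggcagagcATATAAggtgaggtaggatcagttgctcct
Hbb-bt, chr7:103813924-103814173, minus strand: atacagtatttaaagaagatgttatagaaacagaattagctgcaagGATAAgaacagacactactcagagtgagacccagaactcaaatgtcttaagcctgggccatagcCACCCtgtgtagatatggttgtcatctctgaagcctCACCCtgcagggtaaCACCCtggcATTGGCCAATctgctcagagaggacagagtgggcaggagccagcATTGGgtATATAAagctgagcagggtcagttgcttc
Alas2, chrX:150547167-150547416, plus strand: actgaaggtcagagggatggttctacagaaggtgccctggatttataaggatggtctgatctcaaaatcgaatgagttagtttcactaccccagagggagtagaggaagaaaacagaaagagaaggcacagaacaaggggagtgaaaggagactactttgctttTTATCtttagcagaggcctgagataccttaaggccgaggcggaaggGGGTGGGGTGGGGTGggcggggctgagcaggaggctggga
The window of Hba-a2 (chr11:32296242-32296491) is the Hba-a1 window moved by 3 bases, with 247 of 247 bases in common. All 4 motifs were found in all 4 globin windows, with 3 CACCC and 3 CCAAT matches in Hbb-bt. Alas2 held 1 GATAA and 3 CACCC matches, all read on the other strand, and neither of the other motifs in this window. Among 27025 mouse promoter windows of this length, GATAA was in 23.0%, CACCC in 51.3%, CCAAT in 34.5% and ATATAA in 9.51%, and 132 (0.488%) held all 4. A match describes letters in a window and shows no binding.

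Levels of the alpha genes came first. Hba-a1 stood at 67.8, 46.7 and 92.1 CPM in WT 1 to WT 3 and at 87.1, 95.7 and 76.2 CPM in KO 1 to KO 3. Hba-a2 stood at 77.2, 54.6 and 85.2 CPM in the WT libraries and at 134, 89.3 and 86.0 CPM in the KO-labelled ones. WT 2 was the lowest library for both, the groups overlapped for Hba-a1, and for Hba-a2 the lowest KO-labelled library (KO 3) lay just above the highest WT library (WT 3).

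The beta genes followed the same outline. Hbb-bs, the more abundant of the pair, stood at 94.5, 61.9 and 113 CPM in the WT libraries and at 149, 116 and 102 CPM in the KO-labelled ones. Hbb-bt stood at 12.8, 4.62 and 13.3 CPM in the WT libraries and at 16.0, 14.2 and 10.5 CPM in the KO-labelled ones. WT 2 was again lowest and KO 1 highest for both genes, and the groups overlapped, since WT 3 lay above KO 3.

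Alas2 was rare, with 64, 43 and 50 estimated counts in the WT libraries and 59, 58 and 55 in the KO-labelled ones. That is 3.46, 2.58 and 2.90 CPM against 3.48, 3.34 and 3.23 CPM. WT 1 and KO 1 were highest, WT 2 was lowest, and the groups overlapped. The exact Poisson 95% interval of the lowest count, 43 in WT 2, ran from 31.1 to 57.9, and that of the highest, 64 in WT 1, from 49.3 to 81.7, so these intervals overlap. The gene (chrX:150547417-150570622) has 2 transcripts in the table, and the authors' estimates put all counts on one in KO 1 and KO 3 and all on the other in WT 3, so only the sum is used.

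**Figure D1:**
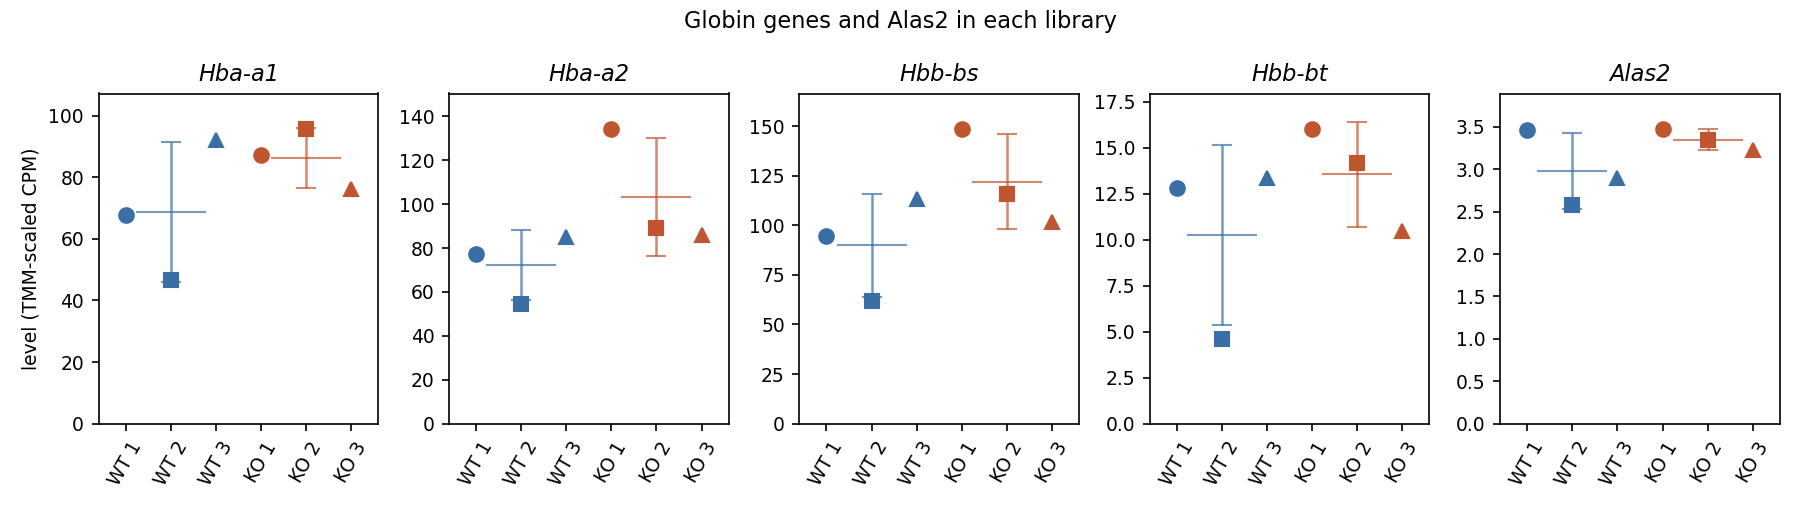
TMM-scaled CPM of each of the 5 genes in each library (points), with the mean and SD of the 3 libraries per group (bar and whiskers); each panel has its own axis from 0. WT 2 is the lowest point in every panel, and only in the Hba-a2 panel do the groups not overlap.

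Between genes, levels can be set side by side per length, in FPKM. In the WT libraries Hbb-bs was at 149 ± 44.9 FPKM, Hba-a2 at 137 ± 32.4, Hba-a1 at 131 ± 44.2, Hbb-bt at 17.3 ± 8.55 and Alas2 at 1.55 ± 0.287 (SD, n = 3). In the KO-labelled libraries the same order held, at 197 ± 35.8, 191 ± 46.6, 161 ± 18.9, 22.2 ± 4.47 and 1.69 ± 0.0551 FPKM (SD, n = 3). In the WT libraries the means of the first 3 genes lay within 1 SD of one another. Within libraries Hbb-bs was above Hba-a1 in 6 of 6, while Hba-a2 was above Hbb-bs in 2 of 6 and below Hba-a1 in 2 of 6. Hbb-bt lay below each of them and Alas2 below Hbb-bt in all 6 libraries. Among 18489 named genes ranked by FPKM, Hba-a2 was between place 234 and place 617, Hbb-bt between 3213 and 8240, and Alas2 between 12096 and 12779.

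The 4 globin genes together took 0.0264%, 0.0164% and 0.0305% of all counts in WT 1 to WT 3 and 0.0375%, 0.0316% and 0.0273% in KO 1 to KO 3. The Wilson 95% intervals, which cover counting error only, were narrow: 0.0158% to 0.0170% in WT 2 and 0.0366% to 0.0385% in KO 1. The libraries therefore differed by far more than counting error, also within a group. On the CPM scale the sum was 241 ± 68.7 in WT and 325 ± 56.4 in the KO-labelled libraries (SD, n = 3), a ratio of means of 1.35, and the highest library was 2.30 times the lowest.

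The spread between libraries was wide for all 4 globins. The highest library was 2.05 times the lowest for Hba-a1, 2.46 times for Hba-a2, 2.40 times for Hbb-bs and 3.47 times for Hbb-bt. The median of the 12322 genes with a mean of at least 5 CPM was 1.43 times, and between 83.6% and 94.3% of those genes had a smaller ratio than a given globin. Across the 6 libraries the log2 CPM of the globins correlated with one another at Pearson r between 0.78 and 0.97 and with Alas2 at r between 0.62 and 0.83. These are descriptions over 6 points that share library and dissection, and the values within each pair also share ambiguous reads.

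In the fit over all genes none of the 5 passed an adjusted p of 0.05 (edgeR quasi-likelihood test, Benjamini-Hochberg adjustment). Neither did any other gene, so the background share was 0%. Ttr, with a log2 fold change of -7.69, KO-labelled minus WT, had an edgeR adjusted p of 0.174. On simulated counts edgeR recovered 10.4% of genes changed 1.5-fold and 95.5% of those changed 4-fold. A gene that was not called may thus still differ. Of all genes tested, 1372 had an unadjusted p under 0.05, and 0 of the 5 were among them. DESeq2 called 311 genes, 2.06% of those tested, and 0 of the 5. Of these 311 genes, 305 were lower and 6 higher in the KO-labelled libraries. Hba-a2 had a log2 fold change, KO-labelled minus WT, of 0.51 (SE 0.23, edgeR adjusted p = 0.583), Hbb-bs of 0.44 (SE 0.25, edgeR adjusted p = 0.648) and Hbb-bt of 0.40 (SE 0.40, edgeR adjusted p = 0.796). For Hba-a1 it was 0.33 (SE 0.24, edgeR adjusted p = 0.729) and for Alas2 0.17 (SE 0.21, edgeR adjusted p = 0.845).

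All 5 fold changes were above 0, as were 53.4% of all genes tested, and their median was 0.40 against 0.02 for all genes. The signs are not 5 separate observations, since the genes share libraries and the pairs share reads. Hba-a2 was the only member with every KO-labelled library above every WT library, which 8% of all genes showed. The gap was small, 86.0 against 85.2 CPM, and it was 85.7 against 85.6 CPM with scaling to the library total alone.

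When the pairs were merged into 1 alpha and 1 beta value, a choice made after seeing the data, the read sharing within a pair no longer mattered. The alpha sum was at 145, 101 and 177 CPM in the WT libraries and at 221, 185 and 162 CPM in the KO-labelled ones, with a log2 fold change of 0.42 (SE 0.22). The beta sum was at 107, 66.6 and 127 CPM against 165, 130 and 112 CPM, with a log2 fold change of 0.44 (SE 0.26). Both sums overlapped between the groups, with WT 3 above KO 3.

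The size of these differences depended on which library was left out. Without WT 2 the log2 fold change was 0.22 (SE 0.17) for the alpha sum and 0.20 (SE 0.18) for the beta sum, and without WT 3 it was 0.62 and 0.64. Without WT 2 the single genes were at 0.33 for Hba-a2, 0.22 for Hbb-bs, 0.10 for Hba-a1, 0.04 for Hbb-bt and 0.06 for Alas2. Without KO 1, the highest library for 4 of the 5 genes, the alpha sum was at 0.30 and the beta sum at 0.27, and Hba-a2 was at 0.28, its lowest value. Without KO 2, the library with high Ltf, the alpha sum was at 0.44 and the beta sum at 0.47.

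**Figure D2:**
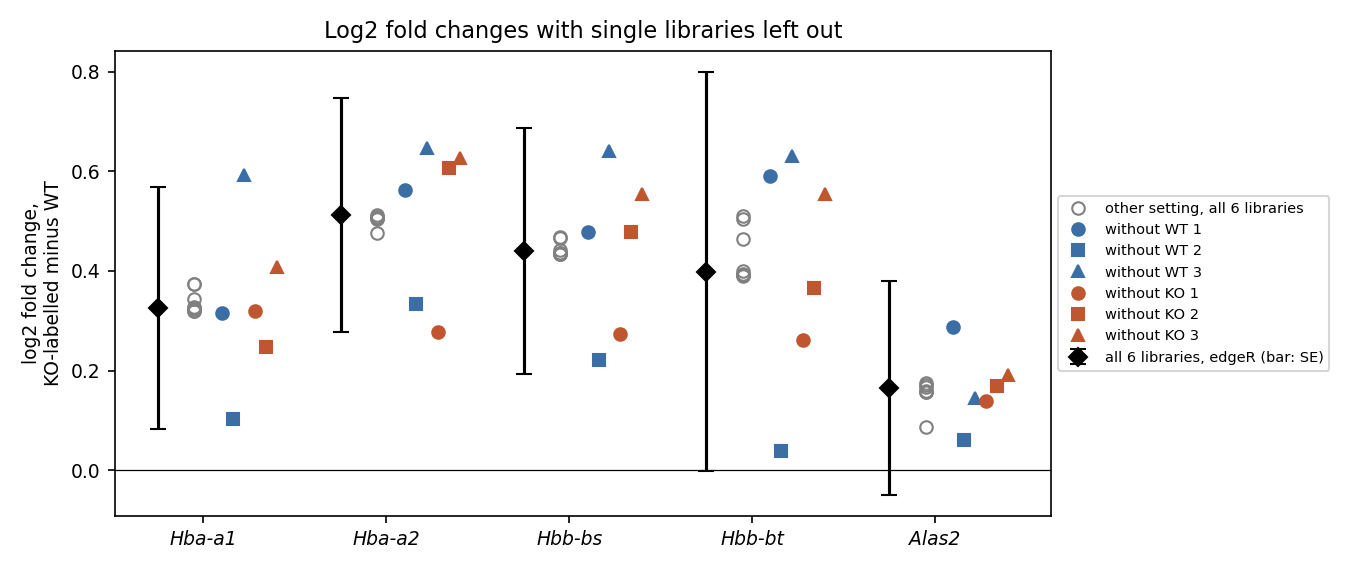
Log2 fold change, KO-labelled minus WT, of the 5 genes with all 6 libraries (black, bar: SE), under other settings with all 6 libraries (open circles) and with each library left out in turn (coloured). Every value lies above 0, the lowest is 0.04 for Hbb-bt without WT 2, and no member passed an adjusted p of 0.05 in any of these fits.

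Ratios within a library do not depend on how libraries are scaled. The alpha to beta ratio of counts was 1.35, 1.52 and 1.40 in WT 1 to WT 3 and 1.35, 1.42 and 1.45 in KO 1 to KO 3. The groups overlapped, and the log2 difference was -0.02 (exact permutation test, two-sided, p = 0.9). Of the 4 ratios tested this one varied least, at 1.42 ± 0.088 against 1.40 ± 0.0528 (SD, n = 3), while the sum of the 4 globins varied 2.30-fold. Per length the ratio was between 1.54 and 1.75, so alpha RNA exceeded beta RNA in 6 of 6 libraries.

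The split within each pair varied more. Hba-a1 to Hba-a2 was 0.879, 0.855 and 1.08 in the WT libraries and 0.649, 1.07 and 0.886 in the KO-labelled ones, lowest in KO 1, the library with the most Hba-a2. Hbb-bs to Hbb-bt was 7.35, 13.5 and 8.50 in the WT libraries and 9.27, 8.17 and 9.77 in the KO-labelled ones, highest in WT 2, where Hbb-bt had 76.6 estimated counts. Groups overlapped for both, with log2 differences of -0.13 (exact permutation p = 0.8) and -0.06 (exact permutation p = 0.9).

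Alas2 relative to the 4 globins was 0.0137, 0.0154 and 0.00954 in the WT libraries and 0.00901, 0.0106 and 0.0118 in the KO-labelled ones, which overlap. The log2 difference was -0.28 (exact permutation p = 0.3). With 3 libraries against 3 the smallest p that the test allows is 0.1, and the Benjamini-Hochberg value over the 4 ratios was 0.9 for each. A p above the threshold does not show that the ratios were alike.

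**Figure D3:**
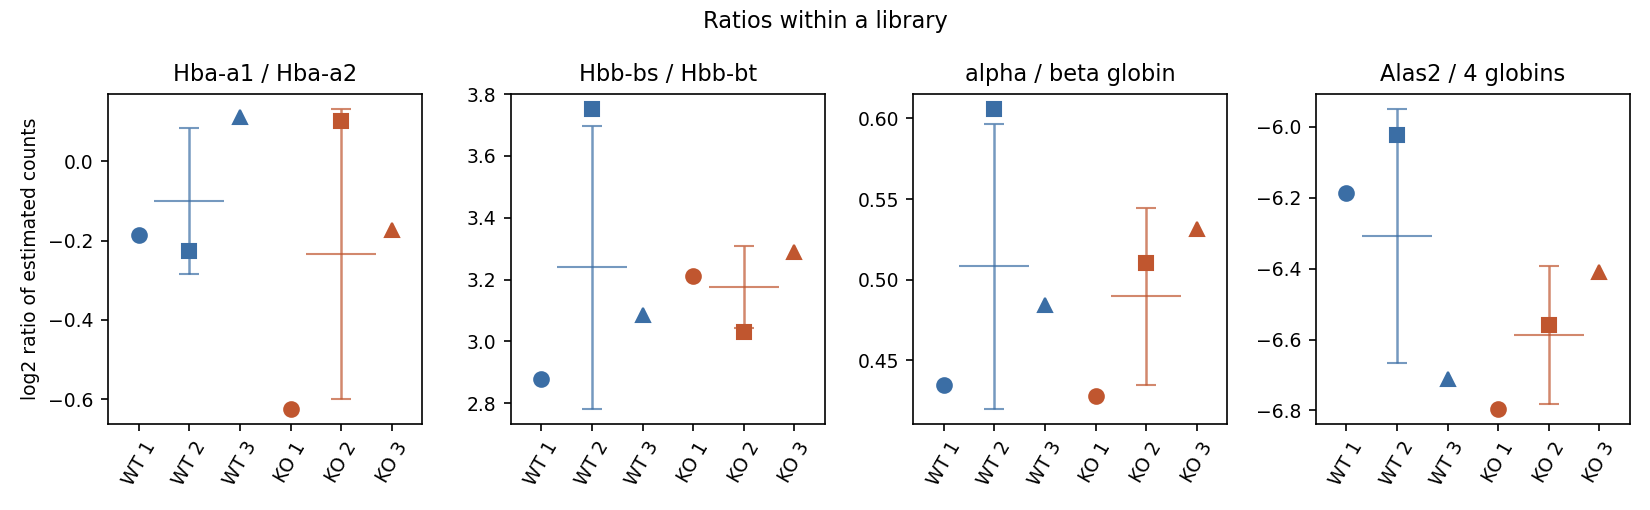
The 4 within-library ratios of estimated counts on a log2 scale, with 1 point per library and the mean and SD of the 3 libraries per group. The alpha to beta ratio has the narrowest range, from 1.35 to 1.52 as a plain ratio, and the groups overlap in every panel.

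Counts of the other globin genes were set beside those of the members. Hbb-b1 and Hbb-b2, the adult beta genes of the other common mouse haplotype, had at most 6.11 and 1.27 estimated counts in any library, against 1032 to 2522 for Hbb-bs. How much sequence they share with Hbb-bs and Hbb-bt was not measured. Their counts too are estimates by the authors' quantification, and the haplotype of the mice was not determined. The embryonic beta gene Hbb-y had at most 2 counts, and Hbb-bh2 between 11.8 and 26.1 counts. Hba-x and Hbb-bh1 were not analysed here. Cytoglobin (Cygb), a globin of connective tissue cells and some neurons, averaged 66.3 ± 3.12 CPM in WT and 88.1 ± 7.51 CPM in the KO-labelled libraries (SD, n = 3). Every KO-labelled library lay above every WT library, which 8% of all genes tested showed. The log2 fold change was 0.41 (SE 0.10, edgeR adjusted p = 0.289, DESeq2 adjusted p = 0.0611). Neuroglobin (Ngb), a globin of neurons, had 668, 46 and 368 counts in the WT libraries and 261, 481 and 405 counts in the KO-labelled ones, lowest in WT 2.

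The labelled identity as blood was checked against defining genes of red cells other than hemoglobin. The anion exchanger Slc4a1 (band 3) had between 0 and 3 counts per library, and the ammonium channel gene Rhag between 0 and 6.81. The membrane protein gene Epb42 had between 10.4 and 25.3 counts and Klf1, the red cell transcription factor, between 2 and 6. A count of 0 allows up to 3 counts, or between 0.17 and 0.176 CPM at these depths. The summed globins in the same libraries ran from 2797 to 6552 counts. The red cell origin of the globin reads was not tested.

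Of 60 genes in lists of other globins, heme synthesis, red cell transcription factors, membrane and cytosol, 42 were tested. Of these 28 had a fold change above 0 and 14 below, beside 53.4% of all genes tested above 0. With edgeR 0 passed and with DESeq2 1, beside 0% and 2.06% of all genes tested. Their number called was thus near the share over all genes. The median log2 fold change of the 42 was 0.09, beside 0.02 for all genes. Among heme synthesis genes 7 of 12 were above 0 and 5 below, with a median of 0.02. Alas1, the form of the enzyme used outside red cells, averaged 52.9 ± 6.83 CPM in the WT group and 52.8 ± 5.66 CPM in the KO-labelled group (SD, n = 3). Ferrochelatase (Fech), which places iron in heme, was at 59.4 ± 3.01 and 51.4 ± 2.82 CPM (log2 fold change -0.21, SE 0.09, edgeR adjusted p = 0.57). Fech is widely expressed, as heme is made in all cells.

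Most abundant members of the red cell lists are also made by brain cells. Dematin (Dmtn), a cytoskeletal protein, was at 312 ± 95.5 and 397 ± 24.5 CPM, and beta spectrin (Sptb) at 183 ± 107 and 197 ± 25.3 CPM (SD, n = 3 each). Carbonic anhydrase 2 (Car2), abundant in oligodendrocytes too, was at 329 ± 30.9 and 265 ± 102 CPM. The gene that DESeq2 called was Tent5c, a poly(A) polymerase, named here after its values were seen. Its level was 11.3, 13.02 and 5.51 CPM in WT 1 to WT 3 and 3.12, 4.09 and 3.46 CPM in KO 1 to KO 3 (log2 fold change -1.48, SE 0.34, edgeR adjusted p = 0.251, DESeq2 adjusted p = 0.00643), opposite in sign to the globins. The choroid plexus sum was likewise highest in WT 1 and WT 2 (23115 and 18028 CPM), lower in WT 3 (5409 CPM) and lowest in the KO-labelled libraries. A link between Tent5c and choroid plexus content was not tested. Among 12 tested genes of heme and iron handling 9 were above 0 and 3 below, beside 53.4% of all genes tested above 0, with a median of 0.09. Heme oxygenase Hmox1, which breaks heme down, was at 6.51 ± 1.26 and 7.08 ± 1.10 CPM (SD, n = 3).

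**Figure D4:**
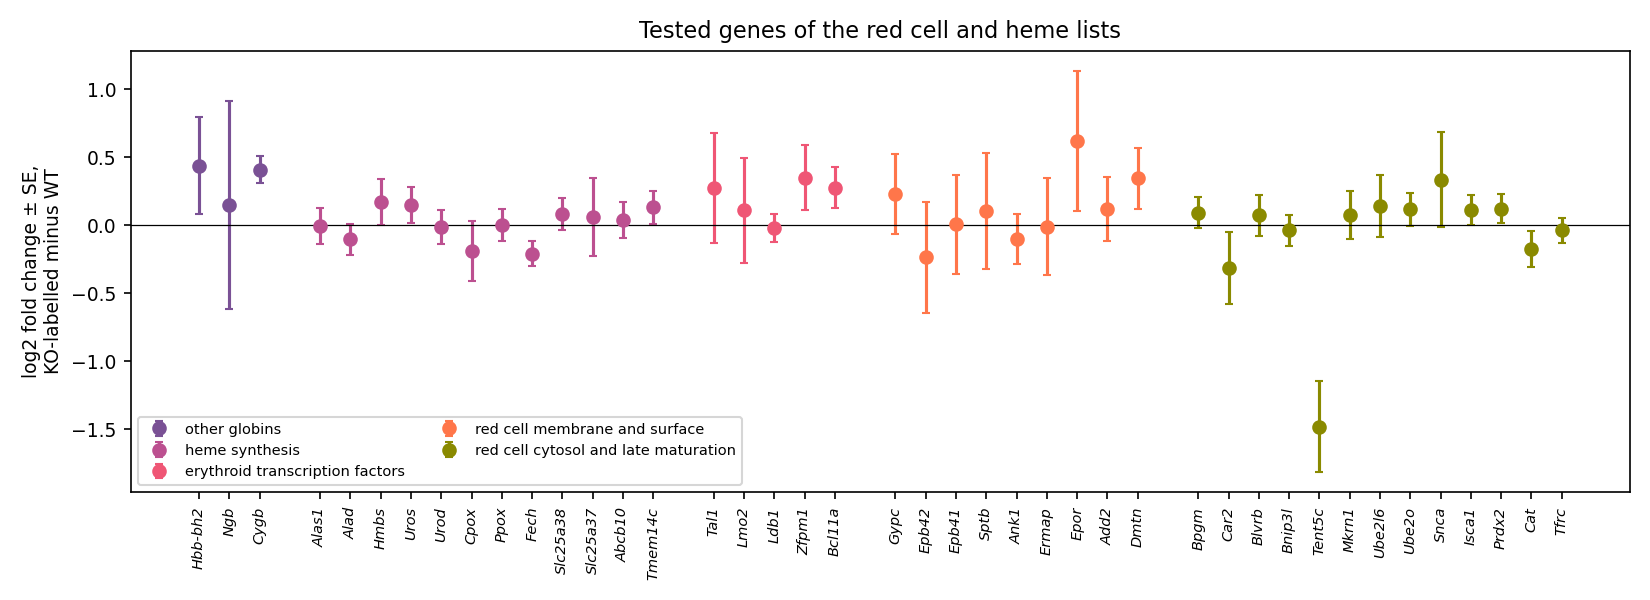
Log2 fold change, KO-labelled minus WT, of the 42 tested genes in the lists of other globins, heme synthesis and red cell genes, 1 point per gene with its SE as a bar, coloured by list. Tent5c lies lowest at -1.48, Epor and Ngb have wide bars, and no gene passed an adjusted p of 0.05 with edgeR.

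Markers of other blood cells were summed in the same libraries. The neutrophil list was at 20.4, 19.9 and 24.2 CPM in the WT libraries and at 24.0, 213 and 23.3 CPM in the KO-labelled ones. WT 2, WT 1 and KO 3 were lowest, in the same order as in the globin sum. The order of the rest differed: WT 3 at 24.2 CPM lay above KO 1, the library with the most globin, at 24.0 CPM. KO 2 was highest, with Ltf at 184 CPM. Other granule genes of the list were mixed in KO 2 and are named after their values were seen. Lcn2 had 26 counts in KO 2 and at most 6 elsewhere, S100a9 16 and at most 1, and Ngp 4 and at most 1. Camp and Mmp8 had 0 counts in KO 2, Elane 1 and Mpo 2. Cxcr2 and Csf3r, receptors of neutrophils, gave most of the sum in the other 5 libraries. The platelet list was at 17.3, 31.0 and 25.8 CPM in the WT libraries and at 31.5, 45.4 and 26.9 CPM in the KO-labelled ones, with 285 counts of the platelet chemokine Ppbp in KO 2 and at most 9 elsewhere. Pf4, another platelet chemokine of the list, had 21 counts in KO 2 and 4 to 13 elsewhere. The platelet integrin Itga2b had 38 counts in KO 2 and 38 to 55 elsewhere. KO 2 held the second highest globin share and KO 1, with the highest, was not high in the neutrophil list. The lymphocyte list was between 2.59 and 4.78 CPM in all libraries. Ighm, Trbc2 and S100a8 were not analysed here.

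Vessel and immune cells of the tissue were compared too, since blood lies in vessels. The endothelial list was at 467, 595 and 561 CPM in the WT libraries and at 571, 619 and 510 CPM in the KO-labelled ones, so that WT 2, with the lowest globins, had the second highest endothelial sum. The median log2 fold change over its 15 genes was 0.17, with 10 above 0 and 5 below, beside 53.4% of all genes tested above 0. DESeq2 called 1 of the 15, beside 2.06% of all genes tested, and edgeR 0. The called gene was Kdr, with a log2 fold change of -0.88 (SE 0.22, edgeR adjusted p = 0.289, DESeq2 adjusted p = 0.0364). The microglia list was at 551, 666 and 633 CPM against 757, 808 and 681 CPM, sums that do not overlap. Of its 14 genes 13 were above 0, beside 53.4% of all genes tested, with a median of 0.29 and 0 called by edgeR. In 6 of the 14 every KO-labelled library lay above every WT library, beside 8% of all genes tested. Genes of a list share libraries and are not separate observations. The blood monocyte list was between 73.7 and 297 CPM. Ace, which choroid plexus and vessels also express, gave 242 and 244 CPM of it in WT 1 and WT 2. In WT 3 Ace gave 77.9 CPM and Fn1 (fibronectin) gave 79.7 CPM. Plac8 of this list had 139 counts in KO 2 and at most 3 elsewhere. The part of these markers in the globin differences was not tested.

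**Figure D5:**
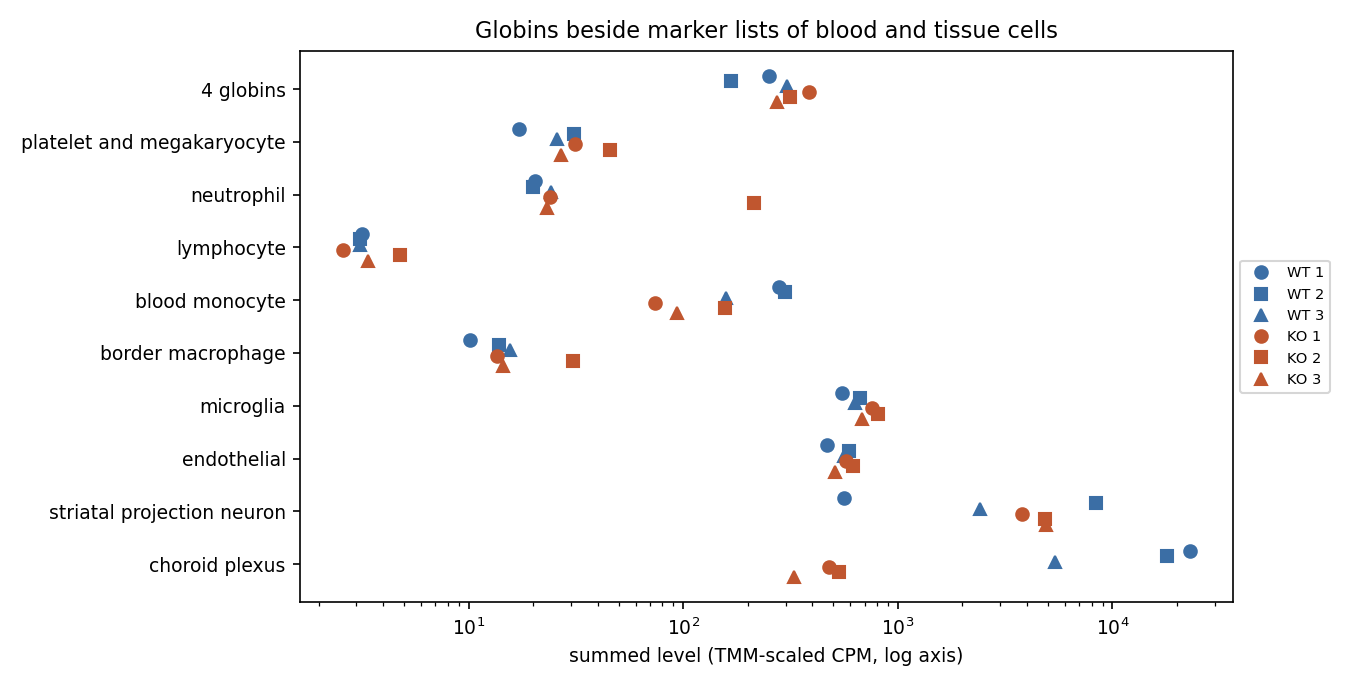
Summed TMM-scaled CPM per library of the 4 globins and of marker lists for other blood and tissue cells, 1 row per list and 1 point per library, on a log axis. KO 2 stands apart in the neutrophil row, mostly through Ltf, while the globin sum runs from 168 CPM in WT 2 to 386 CPM in KO 1.

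The genes whose pattern was most like the globin sum were found by Pearson r of log2 CPM over the 6 libraries. Of genes with a mean of at least 5 CPM, 12032 were compared once the members, predicted loci, clone names and genes without a symbol had been left out. The 10 closest were Coro1a (r = 0.998), Carmil2 (0.995), Mapk11 (0.994), Mapre3 (0.994), Hk1 (0.993), Psme3 (0.993), Prnp (0.99), Rab26 (0.988), Pinx1 (0.988) and Rbx1 (0.987). Coro1a, a coronin abundant in leukocytes, stood at 39.5, 26.2 and 45.4 CPM in the WT libraries and at 59.3, 48.3 and 41.3 CPM in the KO-labelled ones. Prnp, the prion protein gene, stood at 1089, 952 and 1181 CPM against 1296, 1155 and 1128 CPM, a much narrower range. Hk1, the hexokinase of brain and red cells, stood at 302, 256 and 316 CPM against 341, 316 and 306 CPM. With 6 points and 12032 genes compared, values this close to 1 are descriptions of the pattern, low in WT 2 and high in KO 1, and carry no p.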

How the data were processed

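RNA of 3 WT and 3 KO-labelled SVZ libraries was sequenced with paired reads of 50 bases, per the labels. Per the file headers, the deposited table holds estimated counts and FPKM of 61481 RefSeq transcripts. The values show that the deposited FPKM account for transcript length and library size. The submitters' processing notes name mm10 as the genome build and limma 3.40.6 as a tool; which aligner, quantifier and annotation were used is not given in the sources used here.

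Transcript counts were added up for each NCBI gene number (18614 genes, 18489 named through RefSeq GRCm38.p6), rounded, and tested with the two-sided quasi-likelihood F test of edgeR 4.0.16 (R 4.3.3): filterByExpr with a minimum count of 10, TMM scaling, a model with group alone, Benjamini-Hochberg adjustment over 15126 genes, threshold 0.05. TMM factors were between 0.973 and 1.045. CPM are TMM-scaled; log2 CPM used a prior count of 2. Ratios of counts were compared by exact permutation (SciPy 1.17.1). Intervals are Wilson or exact Poisson at 95%, the floor is 3 counts, and both cover counting error only. Alternatives were DESeq2 1.42.0, limma 3.58.1 (voom, and log2(FPKM + 1)), other scalings and filters, each library left out, and a replicate block. Scripts were tested on simulated data. Libraries of a group differed by more than sampling noise in every pair.

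The members and the 20 gene lists (238 genes, 228 in the table) were chosen with earlier results of these data known. Named genes are the 5 members, Zhx2, Ttr, up to 4 of the highest mean CPM in each list, any list gene past the threshold, and the 10 genes most like the globin sum, with predicted loci left out; other names, among them red cell markers, Hbb-b1, Hbb-b2, Hbb-y and Hmox1, were chosen after their values were seen. Some red cell markers of the lists are not reported here.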

Additional observations from a re-analysis of the deposited data

How the results depend on the processing

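The number of all genes called, 0 with edgeR, was 311 with DESeq2 and ran from 0 to 137 with 1 library left out, the 137 without WT 3. None of the 5 genes was called under any alternative run. Fold changes stayed above 0 in all alternatives run: 0.10 to 0.59 for Hba-a1, 0.28 to 0.65 for Hba-a2, 0.22 to 0.64 for Hbb-bs and 0.04 to 0.63 for Hbb-bt (14 alternatives each), and 0.06 to 0.29 for Alas2 (13, since Alas2 is under the 5 CPM filter). Their adjusted p ran from 0.464 to 0.982 over edgeR, DESeq2 and limma.

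The sign changes were in ratios near 0 on the log2 scale with 1 library left out. Hba-a1 to Hba-a2 ran from -0.30 to 0.063 (0.063 without KO 1), Hbb-bs to Hbb-bt from -0.24 to 0.19 (0.19 without WT 2, 0.011 without KO 2), and alpha to beta from -0.056 to 0.030 (0.030 without WT 2, 0.012 without KO 1). The cause was not tested. No ratio had a threshold to cross, since the smallest p is 0.1. With a replicate block Hba-a2 was at 0.51 and Hbb-bt at 0.51, 0 genes were called, and the block changed no call. Same-numbered libraries deviated from their group means with correlations of -0.162, -0.0674 and -0.0368. With 3 libraries per group that differ in tissue makeup, these values cannot show whether same-numbered libraries were handled together. Depth limits Alas2, with 43 to 64 counts, and read sharing limits each globin within its pair.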
